A study of Mus musculus with 4 samples.

Results

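Conventional natural killer (NK) cells of the tumour-bearing mouse liver were chosen cell by cell from UMI counts, where a UMI is a molecular tag that counts 1 captured RNA molecule. A cell was a member if it held at least 1 UMI of Ncr1 or Klrb1c, at least 2 UMIs of Eomes, Klra8, Klra4 and Itga2 together, at most 1 UMI of Mki67 and Top2a together, and none of Cd3d, Cd3e, Cd3g, Cd79a or C1qa. By this gate 393 of 25161 kept cells were conventional NK cells, where cells were kept with 200 or more genes detected and no more than 10% of UMIs from mitochondrial genes. The members numbered 159 in Ex 1, 94 in Ex 2, 79 in Sed 1 and 61 in Sed 2. The data were 10x 3′ single-cell libraries of immune cells that beads against CD45, the surface protein of blood-derived cells, had drawn from the non-parenchymal fraction of the liver. Ex 1 and Ex 2 came from mice that exercised before the operation, and Sed 1 and Sed 2 from sedentary mice. All mice were male, aged 8 weeks, and bore MC38 tumours, MC38 being an established line from a mouse colon cancer. The series models metastasis to the liver that surgical stress promotes, and livers were taken 3 weeks after tumour injection. The labels name no separate animals behind the 4 libraries, so p-values measure only the spread between these samples, and the exercise protocol is not described in them.

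NK cells are innate lymphocytes that kill tumour and infected cells without antigen-specific receptors. They weigh signals of activating receptors, such as NKp46 (encoded by Ncr1) and NKG2D (Klrk1), against those of inhibitory receptors, which in mice include the Ly49 family (Klra genes) that reads MHC class I. Killing uses perforin and granzymes, and activated NK cells release interferon gamma and the chemokines Ccl3, Ccl4, Ccl5 and Xcl1. Conventional NK cells circulate and depend on the transcription factor Eomes, and they mature from Cd27-expressing to Itgam-expressing cells. The liver also holds type 1 innate lymphoid cells (ILC1), resident relatives that share Ncr1 and Klrb1c and lack Eomes.

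The members held 616238 and 377509 UMIs in Ex 1 and Ex 2, against 585568 and 230470 UMIs in Sed 1 and Sed 2. Their median depth was 3483 and 3899 UMIs per cell in Ex 1 and Ex 2, against 6066 and 2879 UMIs in Sed 1 and Sed 2, so that Sed 1 stood apart, with an upper quartile of 10204.5 UMIs. Of the members 8, namely 1 in Ex and 7 in Sed, held 5 or more UMIs of the neutrophil genes S100a8 and S100a9, and 8 were among the highest doublet scores, 2 and 0 in Ex 1 and Ex 2, against 2 and 4 in Sed 1 and Sed 2. No barcode was shared between libraries among the members, and 68 were among all kept cells. Cells were assigned to libraries by the number after the barcode, taken to follow the library names L1 to L4 in the labels, and all comparisons rest on that reading. Where a group has a pair of values below, they are those of its library 1 and library 2, in that order.

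The label was checked on genes that the gate did not use. The NK signalling adaptors Fcer1g and Tyrobp were detected in 388 and 393 of the 393 members, the granule gene Nkg7 in 392 and perforin (Prf1) in 339. Markers of ILC1 were low. Their 7 genes summed to 71.4 and 34.4 CPM in Ex, against 78.6 and 99.8 CPM in Sed, and Cxcr6, a chemokine receptor of resident cells, had 6 and 1 UMIs in Ex, against 0 and 0 UMIs in Sed. Of the T cell markers outside the gate, Cd4 had 0 UMIs in every library and Trac had 4 and 2 UMIs in Ex, against 8 and 0 UMIs in Sed. The beta chain constant gene Trbc1 went the other way, with 252 and 116 UMIs in Ex, against 296 and 103 UMIs in Sed. It was detected in 288 of the 393 members, at a mean of 417 CPM over the libraries, against 592 CPM in CD8 T cells. Trbc2 had a mean of 266 CPM, against 1294 CPM in CD8 T cells, and Trac 6.36 CPM, against 444 CPM. Cd28 had 54 and 33 UMIs in Ex, against 40 and 5 UMIs in Sed. The 8 B cell markers summed to 182 and 151 CPM in Ex, against 92.2 and 126 CPM in Sed, and so were higher in both Ex libraries. Most of this was the immunoglobulin gene Ighm, with 93 and 49 UMIs in Ex, against 49 and 23 UMIs in Sed, while Ms4a1 had 0 UMIs in every library. The 8 genes of monocytes and neutrophils summed to 1053 and 877 CPM in Ex, against 2256 and 21399.7 CPM in Sed, so that Sed 2 carried by far the most, and S100a8 alone had 25 and 4 UMIs in Ex, against 310 and 1578 UMIs in Sed. In 1 cell stood 891 of the 1917 UMIs of S100a8. Results that the 8 cells with neutrophil RNA touch are given below with and without them. Further members held some, as S100a9 was detected in 23 and 5 cells in Ex, against 28 and 18 cells in Sed. Leaving out the 8 cells thus does not remove all of it. S100a8 was also higher in Sed in ILC1-type cells (9.39 and 17.1 CPM in Ex, against 6850 and 1752 CPM in Sed). In CD8 T cells it had 257 and 133 CPM in Ex, against 4401.5 and 1262 CPM in Sed.

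Of the genes that define the gate, which describe the choice and are no finding, Klrb1c was present in 360 members and Ncr1 in 339. Klra8 (Ly49H, an activating receptor) was present in 270 members, Eomes in 264, Klra4 (Ly49D, also activating) in 261 and Itga2 (CD49b) in 147. Ncr1 ran from 527 to 615 CPM over the 4 libraries, Klra8 from 446 to 922 CPM and Eomes from 167 to 477 CPM, where CPM is counts per 1e6 UMIs summed over the members of a library. At the threshold stood 46 members with exactly 2 UMIs of the Eomes, Klra8, Klra4 and Itga2 sum, and 67 cells with exactly 1 UMI stood just outside. Ncr1 had 612 CPM in the 46 cells just inside and 572 CPM in the 67 cells just outside. Eomes had 208 CPM inside and 84.4 CPM outside.

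Conventional NK cells formed a larger share of the kept cells in both Ex libraries than in both Sed libraries. The share was 2.63% in Ex 1 (95% interval 2.24 to 3.06, exact binomial) and 2.22% in Ex 2 (1.79 to 2.71), against 1.09% in Sed 1 (0.862 to 1.35) and 0.802% in Sed 2 (0.614 to 1.03). The means were 2.42% ± 0.289 in Ex and 0.945% ± 0.202 in Sed (SD, n = 2 each), a ratio of 2.56. The groups did not overlap, and the exact two-sided permutation test gave p = 0.33, the smallest p that 2 against 2 libraries allow. Among T and NK lymphocytes the share was 8.85% and 9.02% in Ex, against 6.57% and 4.21% in Sed, a ratio of means of 1.66 with the same p. The gate depends on depth, so every kept cell was also thinned to 1000 UMIs before it was applied, a check chosen after the data were seen. The share was then 1.43% and 1.29% in Ex, against 0.289% and 0.411% in Sed, a ratio of 3.89. The share also depends on the level of the gate genes in a cell. Eomes had 310 and 477 CPM in Ex, against 167 and 213 CPM in Sed. Itga2 had 128 and 204 CPM in Ex, against 56.4 and 69.4 CPM in Sed, while Klra8 and Klra4 overlapped. The thinned ratio therefore mixes gate gene level with the number of cells. With at least 1 UMI of the 4 genes as the gate, the unthinned ratio was 2.33. Intervals cover counting error only, and a share among captured cells is no count per liver.

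**Figure D1:**
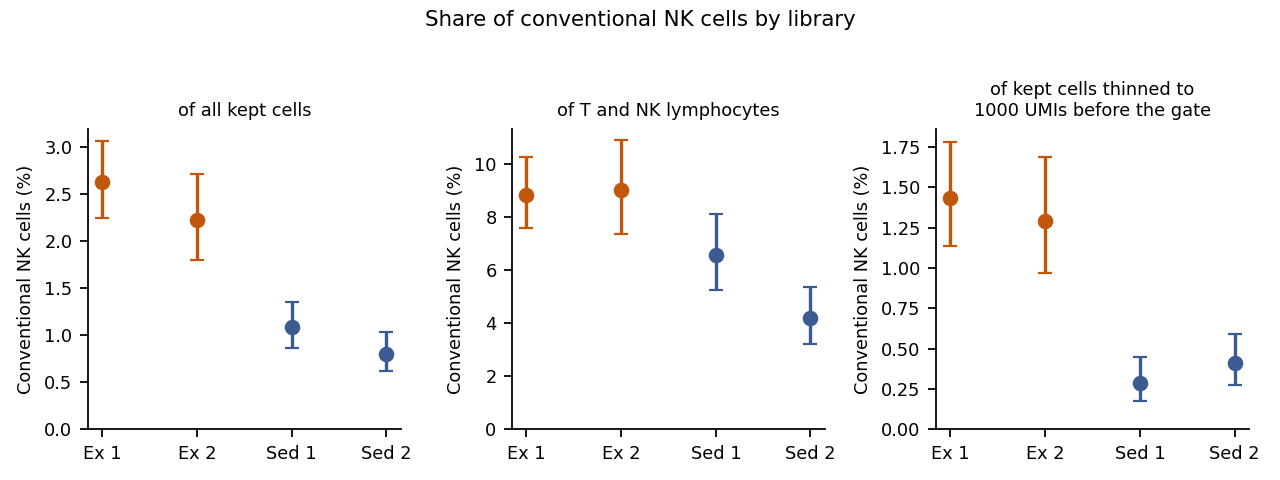
Conventional NK cells as a percentage of all kept cells, of T and NK lymphocytes and of kept cells thinned to 1000 UMIs before the gate, by library (points, with exact 95% binomial intervals). In all 3 panels Ex 1 and Ex 2 lie above Sed 1 and Sed 2, at 2.63% and 2.22% against 1.09% and 0.802% in the first.

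To ask which genes differed between exercised and sedentary mice, the UMIs of the members were summed per library and tested with edgeR's quasi-likelihood test. Of 5406 genes tested, 61 rose (1.13%) and 67 fell (1.24%) at an adjusted p under 0.05, 2.37% in all, and 1006 (18.6%) passed an unadjusted p of 0.05. All 128 called genes had both Ex libraries on one side of both Sed libraries, as did 50.9% of all genes tested. Both Ex libraries lay above both Sed libraries in 34.1% of all genes and below them in 16.8%. The list counts below are to be read beside these shares and the median log2 change of 0.01 over all genes. The share of positive changes over all genes is not given, so counts of signs describe the lists only. The 61 include Itga2, which the gate used and whose difference is no finding. The genes that fell included the interferon-induced Ifi27l2a, the granzyme gene Gzma, the receptor genes Cd160, Klra7 and Lag3 and the signalling gene Rgs1. The genes that rose included both chains of the interleukin-18 receptor, Il18r1 and Il18rap, the transcription factor genes Tcf7 and Satb1 and the invariant chain gene Cd74. The count rested on few cells and on single libraries. It was 59 without Ex 1, 25 without Ex 2, 82 without Sed 1 and 440 without Sed 2, of which 48, 23, 37 and 114 were among the 128. DESeq2 called 28 genes, 24 of them among the 128. With the 8 cells of neutrophil RNA left out, a check added after seeing the data, 31 genes were called, 11 that rose and 20 that fell, and all 31 were among the 128. With called doublets removed it was 38, of which 37 were shared. In a fit with every cell thinned to 1000 UMIs, also added, 24 of 1251 genes were called and 15 were shared. High depth stood in Sed 1, while cells with neutrophil RNA numbered 1 and 0 in Ex, against 3 and 4 in Sed, and beyond these fits their part in the calls was not tested.

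**Figure D2:**
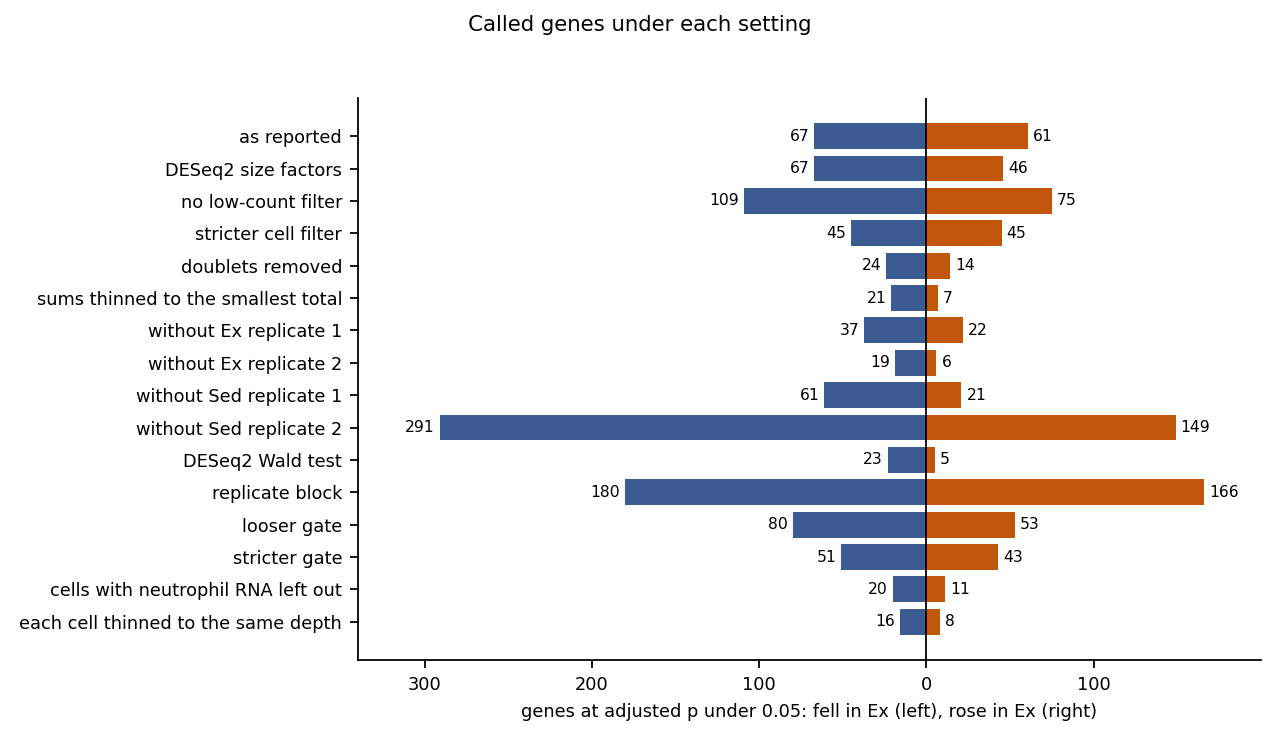
Number of genes called in conventional NK cells at an adjusted p under 0.05 (horizontal axis, genes that fell in Ex to the left and that rose in Ex to the right) for the fit as reported and each alternative (rows). The reported fit has 67 and 61 genes, while the genes that fell run from 16 with each cell thinned to the same depth to 291 without Sed 2, and the genes that rose run from 5 in DESeq2 to 166 with the replicate block.

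Only 3 genes were called under all 15 alternatives, Ifi27l2a, Serpinb9b and Lars2, and 12 of the 128 were called without each of the 4 libraries in turn. Ifi27l2a, an interferon-induced gene of unclear function in NK cells, had 14.6 and 2.65 CPM in Ex, against 343 and 399 CPM in Sed. These were 9 and 1 UMIs in Ex, against 201 and 92 UMIs in Sed. Ifi27l2a had a log2 change of -5.34 ± 0.37 (adjusted p = 3.24e-14). It was present in 8 and 1 cells in Ex, against 33 and 17 cells in Sed, and cells with neutrophil RNA held 30% of its Sed UMIs. Without those cells the adjusted p was 8.54e-07. Serpinb9b, a serine protease inhibitor gene of the granzyme-inhibitor cluster, had 47.1 and 34.4 CPM in Ex, against 176 and 113 CPM in Sed. Serpinb9b had a log2 change of -2.02 ± 0.31 (adjusted p = 3.99e-05). Lars2, the mitochondrial leucyl-tRNA synthetase gene, had 1100.2 and 1277 CPM in Ex, against 285 and 364 CPM in Sed. Lars2 had a log2 change of 1.72 ± 0.26 (adjusted p = 3.09e-05). Its rise was not particular to conventional NK cells, as CD8 T cells and ILC1-type cells showed it too (values below). Both groups stood apart in all 3 genes. Serpinb9b and Lars2 were singled out after their values were seen. Where a call is said below to be lost, the fits named are mostly those without 1 library or without the cells with neutrophil RNA. Further alternatives also lost calls, so these lists are not complete.

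**Figure D3:**
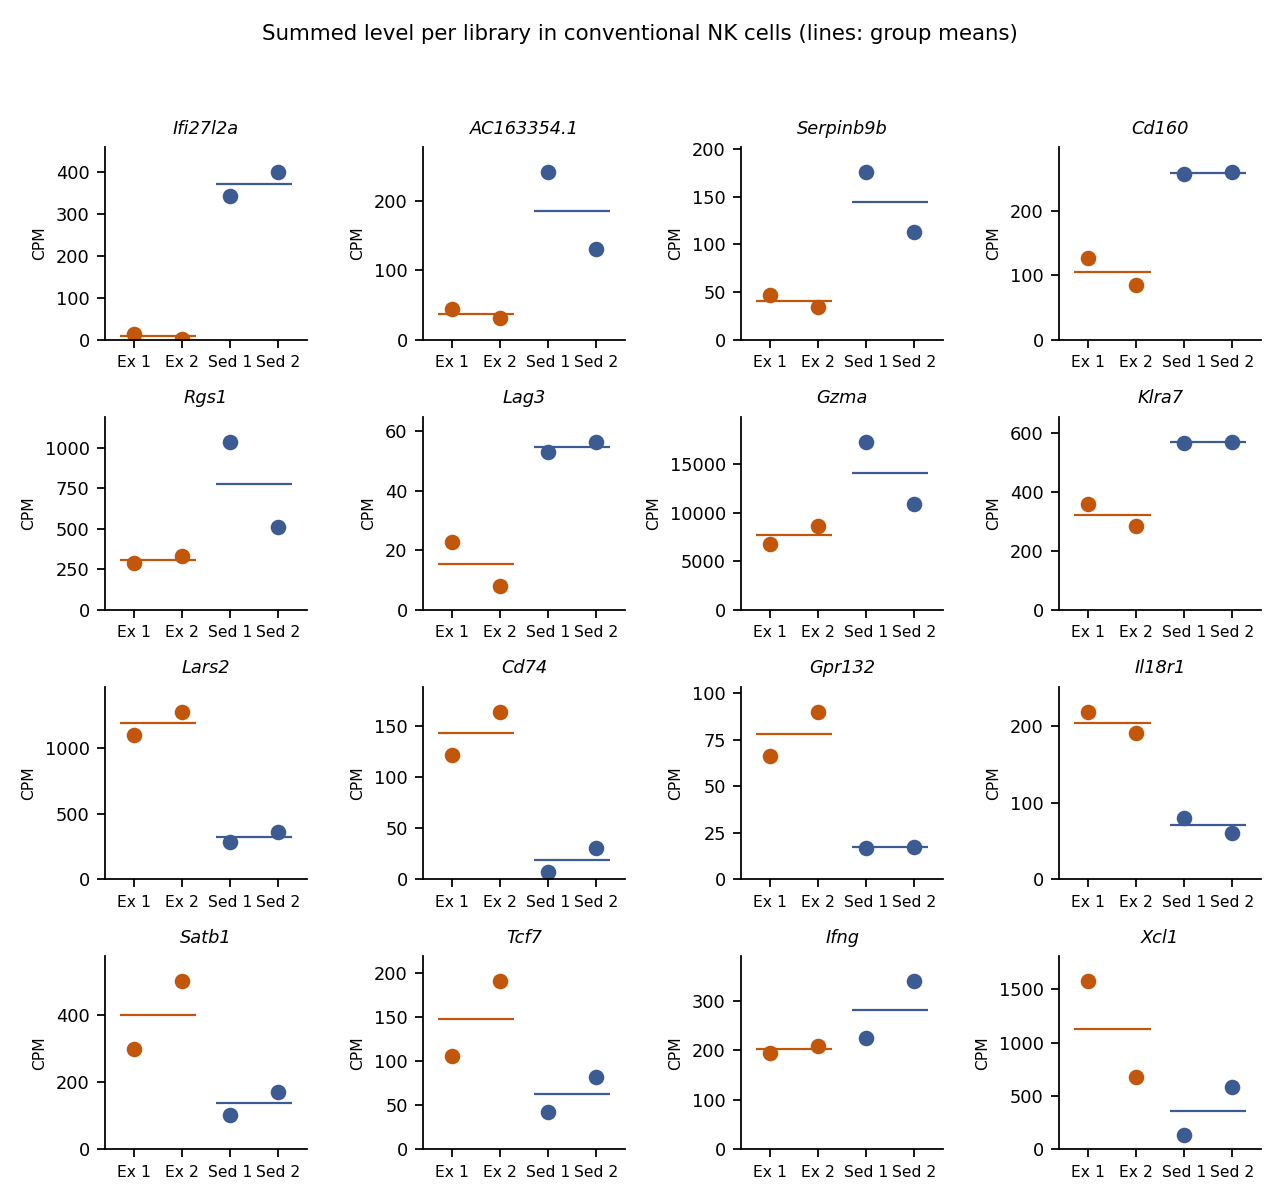
Summed level of 16 genes in conventional NK cells (vertical axes, CPM from 0) in Ex 1, Ex 2, Sed 1 and Sed 2 (points), with the mean of each group as a line. Ifi27l2a is at 14.6 and 2.65 CPM in the Ex libraries against 343 and 399 CPM in the Sed libraries, while Ifng and Xcl1, in the last panels, did not pass the test.

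Of the 13 cytotoxic effector genes tested, 1 fell, none rose and 12 did not pass, with a median log2 change of -0.47 against 0.01 over all genes. Negative were 12 of the 13 changes. The gene that fell was Gzma, a granzyme of NK granules, with 6804 and 8614 CPM in Ex, against 17293 and 10929.8 CPM in Sed. Gzma had a log2 change of -1.05 ± 0.26 (adjusted p = 0.0215). Gzma lies at chr13:113093825-113100981 on the minus strand (GRCm38) and was detected in 366 members. The call of Gzma was lost without Ex 1 (adjusted p = 0.448), without Ex 2 (0.505), without Sed 1 (0.0518) and without the cells with neutrophil RNA (0.0748), and with doublets removed the adjusted p was 0.061. Gzmb, the granzyme that activates caspases, had 1183 and 1205 CPM in Ex, against 2099 and 1579 CPM in Sed. Gzmb had a log2 change of -0.80 ± 0.26 (adjusted p = 0.0853). Prf1, the pore-forming perforin, had 759 and 1044 CPM in Ex, against 1050.3 and 833 CPM in Sed. Prf1 had a log2 change of -0.24 ± 0.26 (adjusted p = 0.651). The groups overlapped in Prf1 and lay apart in Gzmb. The death ligand gene Fasl had a log2 change of 0.42 ± 0.28 and Nkg7 of -0.13 ± 0.25. The granzyme genes Gzmc and Gzmf, singled out after their values were seen, stood mostly in Sed 1. Gzmf had 565 UMIs in Sed 1 and 0 in the other 3 libraries, from 12 cells, of which 1 held 179 UMIs. Gzmc had 103 and 0 UMIs in Ex, against 736 and 11 UMIs in Sed, and 1 cell held 239 of them. ILC1-type cells of Sed 1 had 9664 CPM of Gzmf, and those of the other 3 libraries had 0.

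Among activating receptors and adaptors, 1 of 13 genes tested fell and none rose (median -0.26). This was Fcgr3, the Fc receptor CD16 of antibody-dependent killing, with 37.3 and 42.4 CPM in Ex, against 101 and 86.8 CPM in Sed. Fcgr3 had a log2 change of -1.44 ± 0.34 (adjusted p = 0.0119). The call of Fcgr3 was lost without Ex 1 (adjusted p = 0.158), without Ex 2 (0.113), without Sed 1 (0.219) and without the cells with neutrophil RNA (0.152). The cells with neutrophil RNA held 26.6% of its Sed UMIs. Klrk1, encoding NKG2D, had a log2 change of 0.19 ± 0.25, the adaptor Fcer1g of -0.07 ± 0.25 and the adhesion receptor gene Cd226 (DNAM-1) of 0.55 ± 0.54, none of which passed.

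Of 14 inhibitory receptor genes tested, 2 fell and 12 did not pass (median -0.44). Lag3, a checkpoint receptor, had 22.7 and 7.95 CPM in Ex, against 52.9 and 56.4 CPM in Sed. Lag3 had a log2 change of -1.84 ± 0.44 (adjusted p = 0.0146). Klra7 (Ly49G2), an inhibitory Ly49 receptor at chr6:130218605-130233322, had 359 and 283 CPM in Ex, against 565 and 568 CPM in Sed. Klra7 had a log2 change of -0.98 ± 0.25 (adjusted p = 0.0215) and was called in 9 of 15 alternatives. Both Sed libraries lay above both Ex libraries in each gene. The call of Lag3 was lost without Ex 2 (adjusted p = 0.328), without Sed 1 (0.223) and without the cells with neutrophil RNA (0.0627). The call of Klra7 was lost without Ex 1 (adjusted p = 0.139), without Ex 2 (0.609) and without Sed 1 (0.0614). The other Ly49 genes did not pass, with log2 changes of 0.17 ± 0.27 for Klra1, 0.29 ± 0.27 for Klra3 and 0.03 ± 0.25 for Klra9. Klrg1, a receptor of mature cells that binds cadherins, had 47.1 and 39.7 CPM in Ex, against 88.8 and 78.1 CPM in Sed. Klrg1 had a log2 change of -1.12 ± 0.34 (adjusted p = 0.0665). Klrd1 and Klrc1, the CD94 and NKG2A chains of the receptor for Qa-1, had a log2 change of -0.24 ± 0.26 and -0.63 ± 0.26. Ly49 genes are closely similar in sequence, so UMIs may have been split or dropped between them, and changes of single members are uncertain.

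The Ly49 genes that the gate did not use were spread unevenly over the members. Klra7 was detected in 226 of 393 cells, Klra9 in 157, Klra3 in 120 and Klra1 in 74. Counting these 4 genes per cell, 13.5% of the members held none, 39.7% held 1, 34.9% held 2, 10.4% held 3 and 1.53% held all 4. These shares depend on depth. In cells thinned to 1000 UMIs the share with 2 or more genes was 16.7% and 7.45% in Ex, against 10.1% and 13.8% in Sed, so that the groups overlapped. Pairs of genes met in single cells at counts near those their frequencies give. Klra3 and Klra9 were together in 48 cells where independence gives 47.9, Klra1 and Klra3 in 22 where it gives 22.6, and Klra7 and Klra9 in 82 where it gives 90.3. The cells with Klra7 had a median of 4146 UMIs and those without it 3469 UMIs. These counts are a description without a test.

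None of the 8 cytokine and chemokine genes tested passed (median -0.39), at an adjusted p under 0.05 in edgeR. Ifng had 195 and 209 CPM in Ex, against 224 and 338 CPM in Sed. Ifng had a log2 change of -0.61 ± 0.25 (adjusted p = 0.188). Xcl1, which draws dendritic cells that bear XCR1, had 1572 and 675 CPM in Ex, against 133 and 581 CPM in Sed (log2 change 1.59 ± 1.09, adjusted p = 0.576). The groups did not overlap, and Ex 1 stood far above the rest. Ccl5 had 11145 and 13528 CPM in Ex, against 10048 and 25005 CPM in Sed (log2 change -0.65 ± 0.32, adjusted p = 0.287), Ccl4 had a log2 change of -0.97 ± 0.50 and Ccl3 of -0.17 ± 0.64. In Ccl5, Ccl4 and Ccl3 Sed 2 was the highest library and the groups overlapped.

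The cytokine receptor and signalling list had 2 of 26 genes that rose, where 1.13% of all genes tested did, and none that fell. Of the 26 changes 22 were positive (median 0.56, against 0.01 over all genes). Il18r1 and Il18rap encode the ligand-binding and accessory chains of the receptor for interleukin 18, a cytokine that with interleukin 12 drives interferon gamma in NK cells. They neighbour each other at chr1:40465552-40500854 and chr1:40515362-40551705. Il18r1 had 219 and 191 CPM in Ex, against 80.3 and 60.7 CPM in Sed. Il18r1 had a log2 change of 1.31 ± 0.28 (adjusted p = 0.00438). Il18rap had 336 and 273 CPM in Ex, against 135 and 156 CPM in Sed. Il18rap had a log2 change of 0.92 ± 0.25 (adjusted p = 0.0381). In both genes the Ex libraries lay above the Sed libraries. The call of Il18r1 was lost without Ex 1 (adjusted p = 0.103), while without the cells with neutrophil RNA it had adjusted p = 0.0228. The call of Il18rap was lost without Ex 1 (adjusted p = 0.332), without Ex 2 (0.205), without Sed 1 (0.267) and without the cells with neutrophil RNA (0.104). DESeq2 gave 0.185 for Il18r1 and 0.393 for Il18rap. Il12rb2, a chain of the interleukin 12 receptor, had a log2 change of 0.90 ± 0.37 (adjusted p = 0.182), Stat4, its signal transducer, of 0.87 ± 0.29 (adjusted p = 0.0917), Il2rb, shared by the receptors for interleukins 2 and 15, of 0.14 ± 0.25 and Tgfbr2 of 0.63 ± 0.36.

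Of 23 NK transcription factor genes, 1 rose and 22 did not pass (median 0.36). Tcf7, encoding TCF-1, a factor of early NK cells, had 105 and 191 CPM in Ex, against 42.7 and 82.4 CPM in Sed. Tcf7 had a log2 change of 1.17 ± 0.33 (adjusted p = 0.0477). The call of Tcf7 was lost without Ex 2 (adjusted p = 0.748), without Sed 1 (0.571) and without the cells with neutrophil RNA (0.149). Satb1, a chromatin organiser that stands outside the list and was singled out after its value was seen, had 299 and 498 CPM in Ex, against 102 and 169 CPM in Sed. Satb1 had a log2 change of 1.44 ± 0.28 (adjusted p = 0.00234) and was called in 11 of 15 alternatives. The call of Satb1 was lost without Ex 2 (adjusted p = 0.234) and without Sed 1 (0.0732). Tbx21, which encodes T-bet, had a log2 change of 0.69 ± 0.28, Zeb2, a factor of terminal maturation, of 0.69 ± 0.34, Id2 of -0.15 ± 0.26 and Prdm1 of 0.28 ± 0.40. Other genes central to NK cells that did not pass were the chemokine receptor genes Cxcr3 (0.29 ± 0.39) and Cx3cr1 (0.75 ± 0.93), S1pr5 (0.86 ± 0.96) and the early activation gene Cd69 (0.04 ± 0.26). The adhesion and migration list had 3 of 18 genes that rose, where 1.13% of all genes tested did. All 18 changes were positive (median 0.70, against 0.01 over all genes). The genes that rose are given next. They were Cxcr4, the receptor for the marrow chemokine CXCL12, with 86.0 and 172 CPM in Ex, against 35.9 and 60.7 CPM in Sed (log2 change 1.31 ± 0.36, adjusted p = 0.0381), Icam1, the ligand of LFA-1, at log2 change 1.19 ± 0.29, adjusted p = 0.0173, and the integrin chain gene Itgb7 at log2 change 1.04 ± 0.29, adjusted p = 0.0439. The call of Cxcr4 was lost without Ex 2 (adjusted p = 0.719), without Sed 1 (0.432) and without the cells with neutrophil RNA (0.114). The call of Icam1 was lost without Ex 1 (adjusted p = 0.129), without Ex 2 (0.233), without Sed 1 (0.424) and without the cells with neutrophil RNA (0.0822). The call of Itgb7 was lost without Ex 1 (adjusted p = 0.164), without Ex 2 (0.425), without Sed 1 (0.664) and without the cells with neutrophil RNA (0.102).

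Genes of mature and of immature NK cells each moved in both directions. Of 17 mature genes tested, Gzma and S100a6 fell and Spn, encoding the sialoglycoprotein CD43, rose. S100a6, a calcium-binding protein gene, had 809.8 and 993 CPM in Ex, against 2493 and 1679 CPM in Sed. S100a6 had a log2 change of -1.39 ± 0.27 (adjusted p = 0.00152). Spn had 221 and 297 CPM in Ex, against 108 and 139 CPM in Sed. Spn had a log2 change of 0.92 ± 0.26 (adjusted p = 0.0459). The call of S100a6 was lost without Ex 1 (adjusted p = 0.227), without Ex 2 (0.196) and without the cells with neutrophil RNA (0.0748). The call of Spn was lost without Ex 1 (adjusted p = 0.126), without Ex 2 (0.609), without Sed 1 (0.386) and without the cells with neutrophil RNA (0.114). Of 16 immature genes, Tcf7 rose and Cd160 and Cd7 fell. Cd160, a receptor that binds the TNF family receptor HVEM, had 127 and 84.8 CPM in Ex, against 258 and 260.3 CPM in Sed. Cd160 had a log2 change of -1.43 ± 0.26 (adjusted p = 0.00075). Cd7, an early surface marker of lymphocytes, had 299 and 257 CPM in Ex, against 454 and 633 CPM in Sed. Cd7 had a log2 change of -1.11 ± 0.25 (adjusted p = 0.00777). The call of Cd160 was lost without Ex 2 (adjusted p = 0.186). The call of Cd7 was lost without Ex 1 (adjusted p = 0.126) and without Ex 2 (0.415). Both stayed called without the cells of neutrophil RNA, at adjusted p = 0.011 and 0.03, and in DESeq2, at 0.0295 and 0.0389. Cd27 itself had a log2 change of 0.69 ± 0.28 and Itgam of 0.93 ± 0.79, neither of which passed. Rgs1, a brake on chemokine receptor signalling that stands in the residency and early response lists, had 287 and 328 CPM in Ex, against 1037 and 512 CPM in Sed. Rgs1 had a log2 change of -1.53 ± 0.30 (adjusted p = 0.00598). The call of Rgs1 was lost without Ex 1 (adjusted p = 0.147), without Ex 2 (0.0856) and without Sed 1 (0.125). It was the only call among 6 residency and 33 early response genes tested. Bcl2a1b, a survival gene with near-identical copies, had log2 change -1.29 ± 0.31, adjusted p = 0.0156 and was the only call among 13 survival and death genes, and the call of Bcl2a1b was lost without Ex 2 (adjusted p = 0.445), without Sed 1 (0.27) and without the cells with neutrophil RNA (0.0629).

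**Figure D4:**
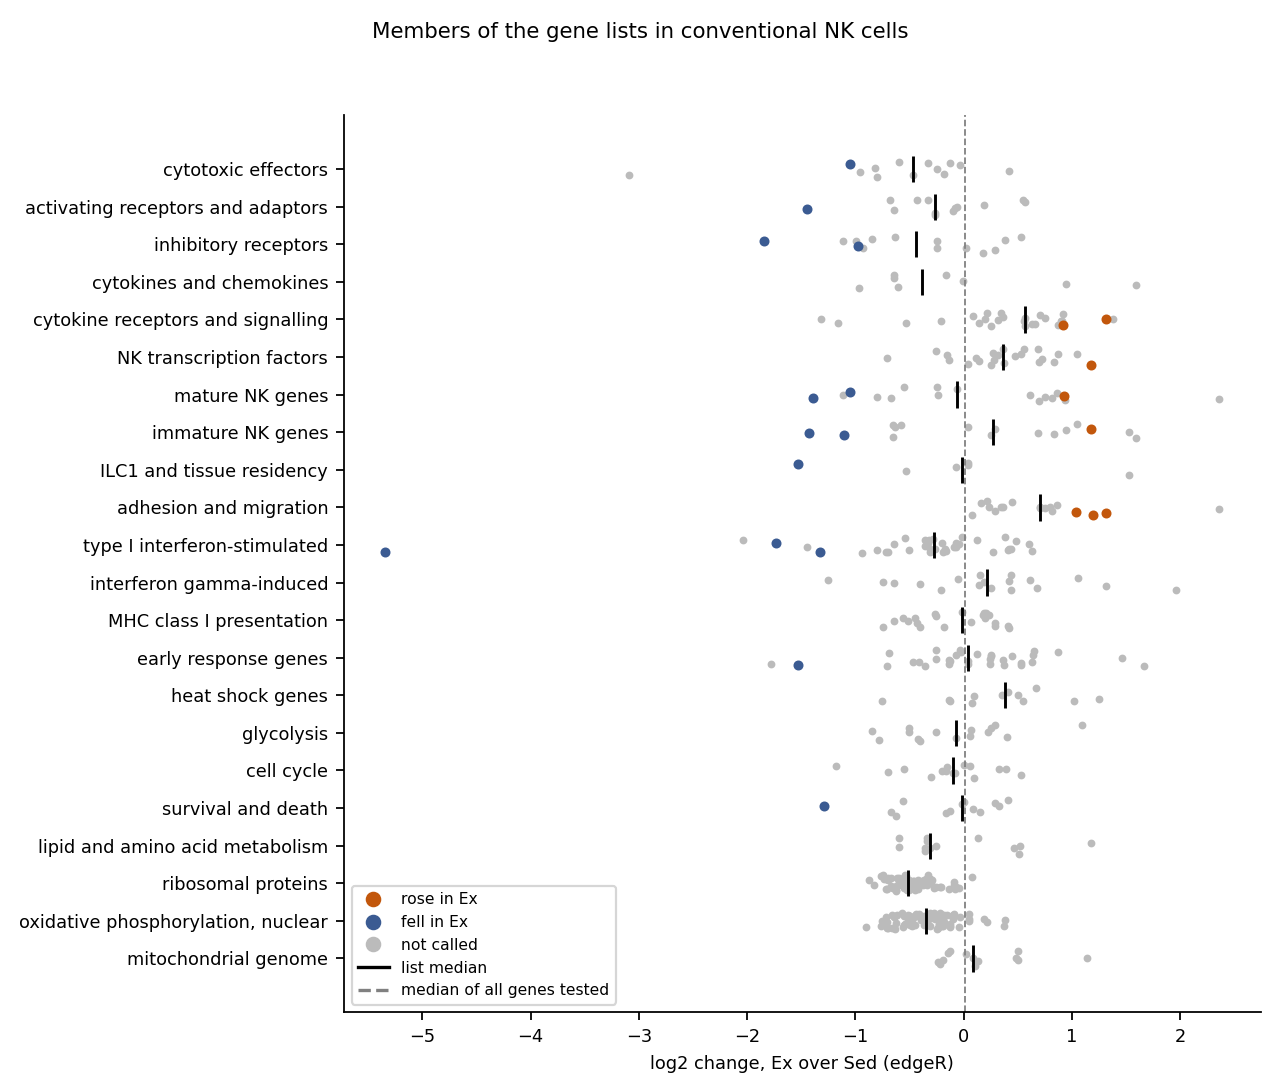
Log2 change, Ex over Sed, of each tested member of the gene lists in conventional NK cells (points, 1 row a list, coloured by call), with the list median (black tick) and the median of all genes tested (dashed line, 0.01). Called genes are few in every list, the adhesion list lies wholly to the right with a median of 0.70, and the ribosomal proteins lie to the left at -0.51 with none called.

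Of 38 type I interferon-stimulated genes tested, 3 fell, where 1.24% of all genes did, none rose and 35 did not pass. There were 29 negative changes, with a median of -0.27 against 0.01 over all genes. Beside Ifi27l2a the genes that fell were Ly6a and Xaf1. Ly6a, encoding the surface antigen Sca-1, had 55.2 and 34.4 CPM in Ex, against 169 and 86.8 CPM in Sed. Ly6a had a log2 change of -1.73 ± 0.33 (adjusted p = 0.00234). Xaf1, a pro-apoptotic partner of XIAP, had 55.2 and 26.5 CPM in Ex, against 104 and 82.4 CPM in Sed. Xaf1 had a log2 change of -1.32 ± 0.35 (adjusted p = 0.026). The call of Ly6a was lost without Ex 2 (adjusted p = 0.0856) and without Sed 1 (0.394). The call of Xaf1 was lost without Ex 2 (adjusted p = 0.49), without Sed 1 (0.389) and without the cells with neutrophil RNA (0.0822). The other members did not pass. Isg15, a ubiquitin-like modifier, had 199.6 and 68.9 CPM in Ex, against 164 and 108 CPM in Sed (log2 change -0.19 ± 0.55, adjusted p = 0.888), Ifit1 had a log2 change of 0.39 ± 0.50, Bst2 of -0.70 ± 0.57 and Irf7, a transcription factor of the response, of -0.65 ± 0.30. Ex 1 and Sed 1 were the higher libraries of Isg15 and the groups overlapped. None of the 18 interferon gamma-induced genes or the 21 genes of MHC class I presentation tested was called by edgeR (medians 0.22 and -0.01).

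The promoters of 3 of these genes are shown to set Xaf1, which fell, beside Isg15 and Ifit1, which did not pass, the last 2 being singled out after their values were seen. The promoter set used held no entry for Ifi27l2a and Ly6a, the other interferon-stimulated genes that fell. Neither is shown or counted below, so Xaf1 does not stand for them. Each is 250 bases before to 50 after the gene start, 5′ to 3′ on the strand of the gene, from RefSeq (GRCm38.p6), for Xaf1 chr11:72301379-72301678 on the plus strand, for Isg15 chr4:156200769-156201068 on the minus strand and for Ifit1 chr19:34640639-34640938 on the plus strand. Capitals mark the letters GAAANNGAAA on either strand, the core that interferon-response factors are known to bind, where overlapping matches run together.
Xaf1: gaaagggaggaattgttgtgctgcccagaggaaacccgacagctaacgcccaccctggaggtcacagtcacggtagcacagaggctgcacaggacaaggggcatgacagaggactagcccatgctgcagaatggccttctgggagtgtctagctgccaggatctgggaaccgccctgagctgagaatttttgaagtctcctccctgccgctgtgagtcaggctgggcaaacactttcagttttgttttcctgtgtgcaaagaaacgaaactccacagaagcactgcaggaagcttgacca
Isg15: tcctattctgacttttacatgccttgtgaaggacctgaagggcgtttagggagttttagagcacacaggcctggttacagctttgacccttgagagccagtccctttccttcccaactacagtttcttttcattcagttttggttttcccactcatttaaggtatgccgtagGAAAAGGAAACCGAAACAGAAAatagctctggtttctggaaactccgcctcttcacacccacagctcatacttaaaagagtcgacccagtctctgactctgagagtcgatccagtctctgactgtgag
Ifit1: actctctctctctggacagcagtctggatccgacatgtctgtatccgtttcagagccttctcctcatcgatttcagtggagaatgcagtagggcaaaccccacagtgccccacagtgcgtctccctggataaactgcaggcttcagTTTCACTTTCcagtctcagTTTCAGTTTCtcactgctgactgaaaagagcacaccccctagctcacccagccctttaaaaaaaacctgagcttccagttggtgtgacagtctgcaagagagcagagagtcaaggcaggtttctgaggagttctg
Isg15 held 3 matches, Ifit1 held 2 and Xaf1 held 0. Of the 29 tested genes of the list with a promoter in the table, 18 held the motif (62.1%), against 3.99% of all 27025 genes there and 3.44% of its 32851 promoters. Among the genes that fell 3 of 49 with a promoter held it (6.12%), Ifitm2, Serpinb6a and Gzma, of which the first pair was named after its values were seen, and among those that rose 0 of 51 did. A match is a description of these letters and not a bound site.

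The largest rises by the naming rule included 3 genes of MHC class II presentation. Cd74, the invariant chain, had 122 and 164 CPM in Ex, against 6.83 and 30.4 CPM in Sed. Cd74 had a log2 change of 3.13 ± 0.43 (adjusted p = 9.29e-06). H2-Aa had 14 and 19 UMIs in Ex, against 2 and 2 UMIs in Sed (log2 change 2.55 ± 0.72, adjusted p = 0.0439), and H2-Ab1 had 18 and 25 UMIs in Ex, against 6 and 2 UMIs in Sed (log2 change 1.98 ± 0.54, adjusted p = 0.0369). The UMIs of Cd74 stood in 46 members, 22 and 15 in Ex, against 4 and 5 in Sed, and 1 cell held 43 of the 148 UMIs. With called doublets removed the adjusted p of Cd74 was 0.272 and of H2-Ab1 0.154, and H2-Aa was not tested. Dendritic cell markers outside class II were near 0, with 0 UMIs of Xcr1 and Cd209a and 2 of Clec9a, while Siglech had 15 and 0 UMIs in Ex, against 0 and 6 UMIs in Sed. In CD8 T cells of the same libraries Cd74 had 560.5 and 410.3 CPM in Ex, against 139 and 1468 CPM in Sed, so that its order over the libraries differed from that of conventional NK cells. In ILC1-type cells Cd74 had 131 and 97.0 CPM in Ex, against 80.0 and 24.0 CPM in Sed, which lay apart as in conventional NK cells. The Ex difference in Cd74 did not differ from that of ILC1-type cells at the threshold (2.13 ± 0.93, adjusted p = 0.865, edgeR interaction test). The B cell markers given above were also higher in both Ex libraries, and the part of free RNA or of other cells in these UMIs was not tested. The call of H2-Aa was lost without Ex 1 (adjusted p = 0.164), without Ex 2 (0.787), without Sed 1 (0.494) and without the cells with neutrophil RNA (0.119). The call of H2-Ab1 was lost without Ex 2 (adjusted p = 0.755), without Sed 1 (0.22) and without the cells with neutrophil RNA (0.112).

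The other 9 of the 12 largest rises were Gramd3, Cmah, Fchsd2, Pmepa1, Cd2ap, Gprin3, Igf2r, Gpr132 and Plekha5, which encode among others a sialic acid hydroxylase (Cmah), the receptor for mannose 6-phosphate and insulin-like growth factor 2 (Igf2r) and a G protein-coupled receptor of lymphocytes (Gpr132). Gramd3 had 14 and 9 UMIs in Ex, against 0 in both Sed libraries, at least 6.30-fold higher at a floor of 3 counts over the Sed group. Cmah had 20 and 16 UMIs in Ex, against 0 and 2 UMIs in Sed, or 14.8 times as much in Ex (95% counting interval 3.81 to 127). Gpr132 had 66.5 and 90.1 CPM in Ex, against 17.1 and 17.4 CPM in Sed. Gpr132 had a log2 change of 1.97 ± 0.42 (adjusted p = 0.00502). The log2 changes of the others were 2.66 ± 0.55 for Fchsd2, 2.65 ± 0.67 for Pmepa1, 2.09 ± 0.60 for Cd2ap, 1.99 ± 0.48 for Gprin3, 1.98 ± 0.48 for Igf2r and 1.96 ± 0.47 for Plekha5. All rested on few UMIs, the Sed libraries holding from 0 to 10 each. The call of Gpr132 was lost without Ex 2 (adjusted p = 0.113) and without Sed 1 (0.1). The call of Fchsd2 was lost without Ex 1 (adjusted p = 0.129). The call of Cmah was lost without Ex 1 (adjusted p = 0.278), without Ex 2 (0.272) and without Sed 1 (0.404). The call of Pmepa1 was lost without Ex 1 (adjusted p = 0.557), without Ex 2 (0.0664), without Sed 1 (0.396) and without the cells with neutrophil RNA (0.0822). The call of Gprin3 was lost without Ex 2 (adjusted p = 0.464), without Sed 1 (0.141) and without the cells with neutrophil RNA (0.0822). The call of Igf2r was lost without Ex 2 (adjusted p = 0.415), without Sed 1 (0.393) and without the cells with neutrophil RNA (0.0822). The call of Plekha5 was lost without Ex 1 (adjusted p = 0.158), without Ex 2 (0.123), without Sed 1 (0.357) and without the cells with neutrophil RNA (0.0748). The call of Cd2ap was lost without Ex 1 (adjusted p = 0.445), without Ex 2 (0.356), without Sed 1 (0.219), without Sed 2 (0.0715) and without the cells with neutrophil RNA (0.0852). Gramd3 was tested in just 1 of those 4 fits, without Sed 2, where its adjusted p was 0.0228.

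Of the 12 largest falls 6 were genes of neutrophils and macrophages whose UMIs in Sed stood mostly in the 7 Sed cells with neutrophil RNA. They were Mmp8, a neutrophil collagenase, Retnlg, a resistin-like protein, the interleukin 1 decoy receptor gene Il1r2, the guanine deaminase gene Gda, the fibronectin gene Fn1 and G0s2, an inhibitor of lipolysis. From 81.0% (Il1r2) to 100% (Mmp8) of their Sed UMIs came from those cells, and all 6 were too low to be tested once these cells were left out. Mmp8 had 0 UMIs in both Ex libraries, against 14 and 15 in Sed, at least 11.8-fold lower at the floor. Retnlg had 2 and 1 UMIs in Ex, against 108 and 118 UMIs in Sed, and its ratio of Sed to Ex was 91.7 (31.0 to 448). In Il1r2 the Ex group also had 0 UMIs, and it was at least 8.52-fold lower. In Gda the ratio of Sed to Ex was 34.1 (5.64 to 1394). Fn1 had 7 and 0 UMIs in Ex, against 41 and 20 UMIs in Sed, and G0s2 had 14 and 7 UMIs in Ex, against 40 and 33 UMIs in Sed. Both groups stood apart in these genes, and the log2 changes of Fn1 and G0s2 were -3.58 ± 0.52 and -2.35 ± 0.40. Without Ex 1 Il1r2 had adjusted p = 0.175, and without Sed 1 Mmp8 had 0.058.

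The other large falls were Lgals3, Plac8, AC163354.1, Coq8b and Hspbp1. Lgals3, encoding galectin-3, had 71.4 and 29.1 CPM in Ex, against 434 and 377 CPM in Sed. Lgals3 had a log2 change of -3.10 ± 0.30 (adjusted p = 1.67e-08). Plac8, a small cysteine-rich protein gene of NK and myeloid cells, had 122 and 212 CPM in Ex, against 661 and 894 CPM in Sed. Plac8 had a log2 change of -2.39 ± 0.27 (adjusted p = 8.78e-08). Cells with neutrophil RNA held 42.2% and 36.8% of their Sed UMIs, and without them the adjusted p was 0.231 and 0.224. The long non-coding RNA gene AC163354.1, at chr12:25303940-25471979, had 43.8 and 31.8 CPM in Ex, against 241 and 130.2 CPM in Sed. AC163354.1 had a log2 change of -2.50 ± 0.32 (adjusted p = 5.26e-06). It was called in all 14 alternatives that tested it, with adjusted p = 0.00146 without the cells of neutrophil RNA. Coq8b, a kinase-like gene of ubiquinone synthesis, and Hspbp1, a cochaperone gene, had a log2 change of -2.62 ± 0.70 and -2.44 ± 0.67 with 0 UMIs in Ex 2. The call of Coq8b was lost without Ex 2 (adjusted p = 0.309). The call of Hspbp1 was lost without Ex 2 (adjusted p = 0.396), without Sed 1 (0.671) and without the cells with neutrophil RNA (0.109). Coq8b was not tested without Sed 1. Of 7 monocyte and neutrophil markers tested, Retnlg was the 1 called.

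The genes called as risen were longer than those called as fallen, a description without a test. The median span of the 61 risen genes was 65.6 kb (quartiles 17.4 and 103) and that of the 67 fallen genes 11.4 kb (4.21 and 24.7), against 23.5 kb over the genes tested, and the median longest transcript was 5440, 1695 and 3354 bases in GENCODE vM21. Risen genes included Malat1 and Gm42418, both singled out after their values were seen. Malat1, a nuclear RNA, had 21129.8 and 22648 CPM in Ex, against 9551 and 11247 CPM in Sed. Malat1 had a log2 change of 0.92 ± 0.25 (adjusted p = 0.0342) and was called in 8 of 15 alternatives. Gm42418, a locus that overlaps ribosomal RNA sequence, had 58935 and 68314 CPM in Ex, against 17742 and 26364 CPM in Sed. Gm42418 had a log2 change of 1.38 ± 0.25 (adjusted p = 0.00084). The call of Malat1 was lost without Ex 1 (adjusted p = 0.381), without Ex 2 (0.737) and without the cells with neutrophil RNA (0.104). The call of Gm42418 was lost without Ex 1 (adjusted p = 0.173) and without Ex 2 (0.431). In CD8 T cells Malat1 had 12500 and 14853 CPM in Ex, against 12481 and 14575 CPM in Sed, whose groups overlapped. In ILC1-type cells Malat1 had 19695 and 29437 CPM in Ex, against 10137 and 14680 CPM in Sed, which lay apart. Gm42418 also lay apart in both, with 51030.1 and 55570 CPM in Ex, against 24792 and 24932 CPM in Sed in CD8 T cells, and 71398 and 88350.2 CPM in Ex, against 21670.2 and 37005 CPM in Sed in ILC1-type cells. In CD8 T cells Lars2 had 923 and 1058 CPM in Ex, against 385 and 384 CPM in Sed, which lay apart as in conventional NK cells. ILC1-type cells had 1033 and 1403 CPM of Lars2 in Ex, against 378 and 648 CPM in Sed, which also lay apart. Lars2 and Gm42418 were thus higher in Ex in each of these cell types, and whether their UMIs share a source was not tested. None of 77 ribosomal protein genes passed in edgeR, though 76 of the 77 changes were negative (median -0.51), and their summed level was 232762 and 214029 CPM in Ex, against 311223 and 239229 CPM in Sed. For nuclear oxidative phosphorylation genes, 69 of 76 changes were negative, none called (median -0.35), and the 13 mitochondrially encoded genes had a median of 0.09. The median mitochondrial share of the members was 3.43% and 3.3% in Ex, against 3.36% and 2.88% in Sed. No heat shock (12 tested), glycolysis (15), cell cycle (15) or lipid and amino acid metabolism (13) gene was called in edgeR.

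Compared with ILC1-type cells, a gate of 138 cells with Ncr1 or Klrb1c UMIs and none of the 4 conventional NK genes, conventional NK cells showed a split in genes outside both gates. As means over the 4 libraries, with the range, Prf1 had 922 CPM (759 to 1050.3) in conventional NK cells and 335 CPM (114 to 698) in ILC1-type cells, and Gzma had 10910.3 CPM (6804 to 17293) and 1921 CPM (1024 to 3901). The sphingosine receptor gene S1pr5, used to leave tissues, had 45.3 CPM (6.83 to 68.9) in conventional NK cells and 0 in ILC1-type cells of every library. In the other direction Tmem176b, a membrane gene of ILC1, had 6.77 CPM (0 to 22.2) in conventional NK cells and 525 CPM (325 to 672) in ILC1-type cells, and Cxcr6 had 3.10 CPM (0 to 9.74) and 220.2 CPM (65.4 to 371). The integrin gene Itga1, the interleukin 7 receptor gene Il7r and the death ligand gene Tnfsf10 likewise lay higher in ILC1-type cells, with 10.6 to 34.2, 1.71 to 21.7 and 5.12 to 26.0 CPM in conventional NK cells and 72.7 to 302, 222 to 582 and 94.5 to 234 CPM in ILC1-type cells. Gzmb, Ifng, Klrk1 and Il2rb overlapped between both types. These levels describe the gates and carry no test.

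Whether the exercise difference itself differed between cell types was tested with an interaction term. Against ILC1-type cells, 3 of 3618 genes passed (0.0829%), 1 with a more positive (0.0276%) and 2 with a more negative change (0.0553%) in conventional NK cells, and 208 (5.75%) passed an unadjusted p of 0.05. S100a4, a calcium-binding protein gene, had 133 and 71.5 CPM in Ex, against 606 and 252 CPM in Sed in conventional NK cells, and 1334 and 1033 CPM in Ex, against 698 and 684 CPM in Sed in ILC1-type cells, a difference of -2.80 ± 0.39, adjusted p = 0.00337. AC163354.1 had 582 and 570.5 CPM in Ex, against 393 and 480.1 CPM in Sed in ILC1-type cells (difference -2.69 ± 0.43, adjusted p = 0.00599). Itga4, the alpha 4 integrin chain, had 453 and 723 CPM in Ex, against 179 and 495 CPM in Sed in conventional NK cells, and 56.4 and 68.5 CPM in Ex, against 102 and 246 CPM in Sed in ILC1-type cells (difference 2.28 ± 0.42, adjusted p = 0.0263). With 23 to 45 ILC1-type cells a library, all 3 calls were lost without Ex 1 (adjusted p = 0.247, 0.361 and 0.361 for S100a4, AC163354.1 and Itga4) and without Ex 2 (0.125, 0.167 and 0.641). The number called was 1 without Ex 1, 0 without Ex 2, 17 without Sed 1 and 39 without Sed 2. For Ifi27l2a the difference was -2.36 ± 0.50, adjusted p = 0.0847. In ILC1-type cells Ifi27l2a had 197 and 28.5 CPM in Ex, against 1062 and 792 CPM in Sed, so it was lower in Ex there too.

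Against CD8 T cells (1385 cells), 165 of 8302 genes passed (1.99%), 53 with a more positive (0.638%) and 112 with a more negative change (1.35%) in conventional NK cells, and 894 (10.8%) passed an unadjusted p of 0.05. The count was 72 without Ex 1, 54 without Ex 2, 320 without Sed 1 and 259 without Sed 2. Ifi27l2a, with 548 and 279.7 CPM in Ex, against 2165 and 2153 CPM in Sed in CD8 T cells, was lower in Ex in both cell types and differed between them by -3.21 ± 0.32, adjusted p = 7.99e-08, and it passed in all 9 alternatives. Cd74 differed by 3.12 ± 0.38, adjusted p = 5.41e-05. Among effector genes, Prf1 (1.51 ± 0.27, adjusted p = 0.00339), Nkg7 (0.94 ± 0.19, adjusted p = 0.00341), Fasl (2.0 ± 0.33, adjusted p = 0.000327) and Ccl3 (2.29 ± 0.34, adjusted p = 0.000669) had a more positive difference in conventional NK cells, and Xcl1 (-1.83 ± 0.36, adjusted p = 0.013) a more negative one. In CD8 T cells Prf1 had 59.9 and 98.0 CPM in Ex, against 212 and 353 CPM in Sed, and Nkg7 had 1101 and 839 CPM in Ex, against 1642 and 2747 CPM in Sed, lower in both Ex than in both Sed libraries, while both genes overlapped between the groups in conventional NK cells. The call of Nkg7 was lost without Ex 1 (adjusted p = 0.0504) and Ex 2 (0.478), that of Xcl1 without Ex 1 (0.11), and that of Cd74 with called doublets removed (0.649). For Gzma the interaction did not pass, at 4.35 ± 0.50, adjusted p = 0.143, with 97.1 and 205 CPM in Ex, against 5608 and 6708 CPM in Sed in CD8 T cells. The CD8 T cells were summed as 1 gate. In them Gzmk had 19.7 and 10.5 CPM in Ex, against 173 and 277 CPM in Sed, and Tcf7 had 269 and 375 CPM in Ex, against 166 and 35.1 CPM in Sed. A different mix of naive and effector CD8 T cells therefore cannot be told apart from a change per cell in these interactions. The 6 largest differences by the naming rule, Areg, Fcgr1, Cxcr6, Hba-a1, Gpr141 and Gstp3, rested on at most 45 UMIs per gene in all conventional NK cells together.

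The members were last described by the maturation markers Cd27 and Itgam. Cd27 UMIs without Itgam were found in 98 cells, Itgam without Cd27 in 84, both in 30 and neither in 181. Cd27-only cells numbered 41 and 20 in Ex, against 24 and 13 in Sed, and Itgam-only cells 35 and 25 in Ex, against 8 and 16 in Sed. In cells thinned to 1000 UMIs, Itgam-only cells made up 43.8% and 77.3% of both kinds in Ex, against 57.1% and 66.7% in Sed (exact two-sided permutation p = 1). Unthinned, the shares were 46.1% and 55.6% in Ex, against 25% and 55.2% in Sed (exact permutation p = 0.667). The Ex libraries spanned the Sed libraries after thinning, where 7 to 32 cells a library remained. The sizes of both kinds were too small for a test of genes, so their levels are a description.

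Several mature genes were higher in Itgam-only cells and several immature genes in Cd27-only cells. Of 15 mature genes with at least 20 UMIs in both kinds together, 8 were higher in Itgam-only cells in all 4 libraries and none was higher in Cd27-only cells in all 4. Of 15 immature genes it was 0 and 10. The share of all genes that did so is not given, so these counts describe the lists only. Among the 8, Gzma was nearly level in Sed 1, at 15868.6 CPM in Itgam-only and 15810.5 CPM in Cd27-only cells. Among the 10, Cxcr3 was nearly level in Sed 2, at 32.5 CPM in Itgam-only and 34.2 CPM in Cd27-only cells. So were Myb (31.8 and 35.4 CPM) and Tnfrsf9 (63.5 and 70.8 CPM) in Ex 2. In Sed 1, with 8 Itgam-only cells, these cells had 0 CPM of Ltb, Tcf7, Cxcr3 and Myb. The transcription factor gene Zeb2 had 413 CPM in Itgam-only and 139 CPM in Cd27-only cells, the monocyte and NK surface gene Ly6c2 619 CPM in Itgam-only and 170.3 CPM in Cd27-only cells and the chymase gene Cma1 197 CPM in Itgam-only and 46.3 CPM in Cd27-only cells. Gzma had 11452 CPM in Itgam-only and 8840.2 CPM in Cd27-only cells, Gzmb 1642 CPM in Itgam-only and 1061 CPM in Cd27-only cells and Ccl5 17659 CPM in Itgam-only and 10323 CPM in Cd27-only cells, each higher in Itgam-only cells in all 4 libraries. In the other direction Xcl1 had 425 CPM in Itgam-only and 1153 CPM in Cd27-only cells, the lymphotoxin gene Ltb 94.1 CPM in Itgam-only and 287 CPM in Cd27-only cells, Cd160 72.8 CPM in Itgam-only and 235 CPM in Cd27-only cells, Cd7 222 CPM in Itgam-only and 452 CPM in Cd27-only cells, the costimulatory receptor gene Tnfrsf9 60.7 CPM in Itgam-only and 143 CPM in Cd27-only cells and Tcf7 85.0 CPM in Itgam-only and 126 CPM in Cd27-only cells. The Ly49 gene Klra3 was higher in Itgam-only cells in all 4 libraries (270.1 CPM in Itgam-only and 124 CPM in Cd27-only cells). Cd27-only cells were deeper in 3 of 4 libraries. The median was 3261 and 3785 UMIs in Ex, against 3826 and 2359 UMIs in Sed in Itgam-only cells, and 4122 and 3722 UMIs in Ex, against 8404 and 4107 UMIs in Sed in Cd27-only cells. S1pr1, a sphingosine receptor gene of the mature list, was higher in Cd27-only cells in 3 libraries.

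**Figure D5:**
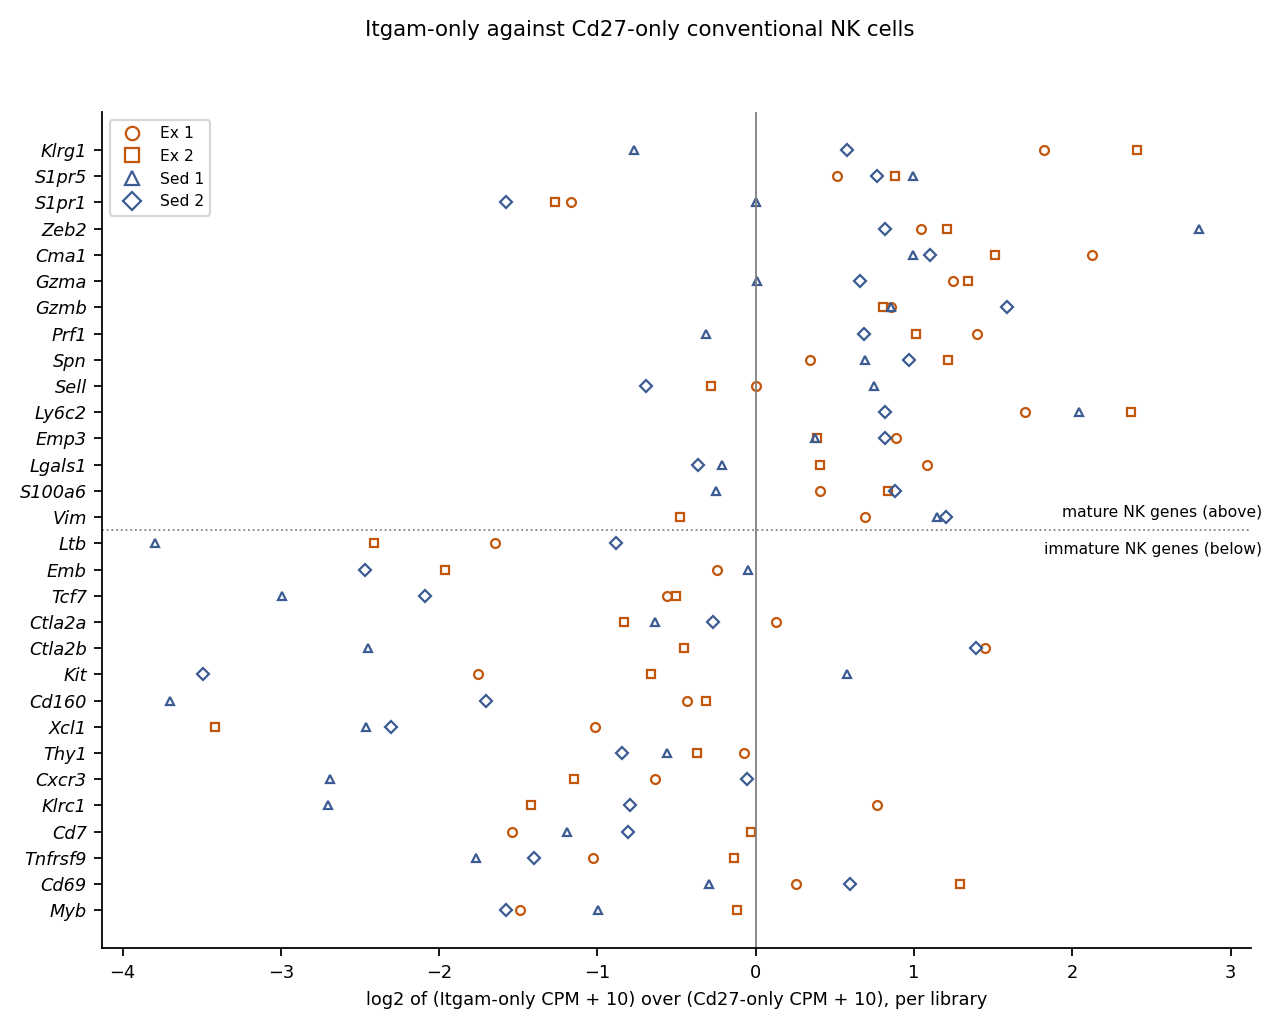
Itgam-only against Cd27-only conventional NK cells, as the log2 ratio of their summed levels with a pseudocount of 10 CPM (horizontal axis), for genes of the mature and immature NK lists with at least 20 UMIs (rows) in Ex 1, Ex 2, Sed 1 and Sed 2 (symbols). Of 15 mature genes 8 lie right of 0 in all 4 libraries, and of 15 immature genes 10 lie left of it. The share over all genes is not given.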

How the data were processed

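The authors deposited UMI counts per gene and cell barcode aggregated over the libraries. Cell Ranger is given as 7.0.0 with mm10 and GRCm38 per the submitters' processing notes, and as 6.1.1 per the file headers. The aggregation's depth setting is not given in the sources used here. Of 51140 matrix columns 28525 carry a barcode, and 22615 were not used. Cells with 200 or more genes and no more than 10% of UMIs from mitochondrial genes were gated as described. The members and lists were chosen with earlier results of these data known.

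UMIs of the members were summed per library and tested in edgeR 4.0.16 (quasi-likelihood, robust, TMM, filterByExpr; R 4.3.3) with Benjamini-Hochberg adjustment and a threshold of 0.05. SE was taken as log2 change divided by the root of F, and SD covers 2 libraries. Interactions used library as a block. DESeq2 1.42.0 (Wald test), other filters, gates, size factors and left-out libraries were alternatives. Doublets were scored with Scrublet in scanpy 1.11.5, and the highest scores up to 0.8% per 1000 cells were removed in 1 alternative. Shares were tested with exact permutation, with 95% Clopper-Pearson intervals from scipy 1.17.1 that cover counting error only. Other tools were numpy 2.4.6, pandas 2.3.3 and matplotlib 3.10.9. On simulated data 88 of 100 genes changed 4-fold and 18 of 100 changed 2-fold were called, with 5 of 5206 unchanged, of 5406 drawn. These were library sums drawn at the trended dispersion, without RNA of other cells or differences in depth per cell. The rates therefore need not hold for the real libraries.

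Named genes were the 12 called genes with the highest and the 12 with the lowest log2 change (10 CPM or more on average in the higher group, libraries of both groups apart), up to 4 called genes per list, a picked list, and up to 6 genes per interaction, leaving out ribosomal protein, mitochondrial, predicted and receptor segment genes and those of the gate. GENCODE vM21 gave positions for 5404 of the 5406 genes.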

Additional observations from a re-analysis of the deposited data

Results flagged for a closer look

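The difference between exercised and sedentary mice differed between conventional NK cells and ILC1-type cells in 3 genes, by the interaction test. The differences on the log2 scale, conventional NK cells minus ILC1-type cells, were -2.80 for S100a4, -2.69 for AC163354.1 and 2.28 for Itga4. S100a4 passed in 6 of 9 alternatives, AC163354.1 in 6 of 9 and Itga4 in 5 of 9.

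Against CD8 T cells, the 6 largest differences that the naming rule gives were in genes with few UMIs in conventional NK cells. Areg, the growth factor amphiregulin, differed by 9.0 ± 2.0 (adjusted p = 0.00806, called in 6 of 8 alternatives) and had 0 and 6 UMIs in Ex, against 0 and 0 UMIs in Sed in conventional NK cells. Fcgr1, a high-affinity Fc receptor, differed by -7.34 ± 1.74 (adjusted p = 0.0149, called in 5 of 8 alternatives) and had 0 and 0 UMIs in Ex, against 4 and 5 UMIs in Sed in conventional NK cells. Cxcr6, a chemokine receptor, differed by 7.08 ± 1.71 (adjusted p = 0.0162, called in 5 of 9 alternatives) and had 6 and 1 UMIs in Ex, against 0 and 0 UMIs in Sed in conventional NK cells. Hba-a1, an alpha globin, differed by -6.79 ± 1.43 (adjusted p = 0.034, called in 6 of 8 alternatives) and had 4 and 1 UMIs in Ex, against 2 and 3 UMIs in Sed in conventional NK cells. Gpr141, an orphan receptor, differed by -6.68 ± 1.71 (adjusted p = 0.0266, called in 4 of 8 alternatives) and had 0 and 0 UMIs in Ex, against 8 and 5 UMIs in Sed in conventional NK cells. Gstp3, a glutathione transferase, differed by -5.31 ± 0.82 (adjusted p = 0.000158, called in 8 of 9 alternatives) and had 1 and 0 UMIs in Ex, against 42 and 2 UMIs in Sed in conventional NK cells. In CD8 T cells 1313 of the UMIs of Hba-a1 stood in Ex 1, and without Ex 1 its difference was -0.38 (adjusted p = 1). With 1 library left out, the call of Areg was lost without Ex 2 (adjusted p = 1) and Sed 2 (0.137), Fcgr1 without Ex 1 (0.388), Cxcr6 without Ex 1 (0.729), Sed 1 (0.0896) and Sed 2 (0.128), Gpr141 without Ex 1 (0.461) and Ex 2 (0.167), and Gstp3 without Sed 1 (0.191). No group of samples was large enough for a search for single outlying libraries.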

How the results depend on the processing

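The number of genes called between exercised and sedentary mice, 128 as reported, was 38 with called doublets removed, 28 with sums thinned to the smallest total, 28 in DESeq2, 31 without the cells of neutrophil RNA and 24 with each cell thinned to the same depth. It ran from 25 to 440 with 1 library left out, those fits having a single library in 1 group that is assumed to vary like the others. Other alternatives (size factors, low-count filter, cell filter, gates) stayed within 1.5 times, and no named call changed sign under any alternative counted here. A further fit, with the replicate numbers crossed between the groups, was also run and is left out of all counts of alternatives. With the replicate block the number called was 346, among them all 128. The deviations of same-numbered libraries from their group means correlated at 0.09 over genes, so the numbers were not taken as pairs. The interaction with ILC1-type cells, 3 genes, gave 17 without the count filter and 1 with thinned sums, and from 0 to 39 with 1 library left out. That with CD8 T cells, 165 genes, gave 93 with thinned sums and from 54 to 320. The ratio of the NK cell shares, 2.56, was 1.66 among T and NK lymphocytes, 3.22 with the stricter cell filter, 3.89 with cells thinned before the gate, and from 2.23 to 3.02 with 1 library left out. The maturation share, -1.39 points, ran from -2.21 to 10.7 with all libraries and from -18.2 to 15.4 with 1 library left out, so that its sign depended on the library, within the spread between libraries. The test between Itgam-only and Cd27-only cells was not run, since only Ex 1 held at least 30 cells of both kinds. Depth limits what can be said of genes with few UMIs.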
